A study of Mus musculus with 2 samples.

Results

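The 35 genes described here drive or mark cell division: 18 act in G2 or mitosis, 11 act in S phase and 6 are cyclins or kinases of G1. They were chosen by name, as a list of cell cycle genes, and all 35 were among the 24130 genes of both count matrices. Cells were then chosen with them: a barcode, the sequence tag of 1 droplet and so of 1 cell in the usual case, was counted where 4 or more of the genes had at least 1 UMI (unique molecular identifier, a count of captured RNA molecules). That rule took 399 of 21425 control barcodes and 288 of 6996 EMF_AuNPs barcodes. A narrower count that left out the 6 G1 genes took 49 and 40 barcodes.

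The cells came from the hippocampus of male C57BL/6 mice with an age of 6 months in the labels, whose titles call the brain aged, dissociated with papain, and were sequenced as 2 droplet-based single-cell libraries, 1 per group. Mice of the control library received saline. Mice of the EMF_AuNPs library received gold nanoparticles in the hippocampus and then 3 weeks of an electromagnetic field between Helmholtz coils, and the labels do not make clear if saline mice were put into the coils as well. No genotype other than the strain and no number of animals per library is given in the sources used here. Each group was a single library, so the spread between replicates is unknown, no test between groups was made, and every interval below is a 95% interval for counting error only.

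In a cycling cell, D-type cyclins with Cdk4 or Cdk6 lead out of G1 and cyclin E with Cdk2 opens S phase. The Mcm helicase and Pcna take part in copying the DNA, and cyclins A and B with Cdk1 drive G2 and mitosis. D cyclins and Mcm genes are also read in resting cells, whereas most mitotic genes are transcribed late in the cycle and their products are destroyed as the cell divides. In the adult hippocampus the known dividing cells are the progenitors of the dentate gyrus, the oligodendrocyte precursors and, at a low rate, microglia and endothelial cells.

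The promoters of these genes are known for 3 short elements, the CHR element of late genes, the E2F site of early ones and the CCAAT box, and the stretches below are shown as examples of promoters that hold them in different combinations or not at all. Of the 35 genes, 28 had a promoter in the RefSeq table (14 G2 or M, 10 S and 4 G1 genes), and 27025 genes in all had one. Printed are the 150 bases before the RefSeq transcription start on GRCm38.p6, 5′ to 3′ on the gene's strand, with capitals for the CHR core (TTTGAA), the CCAAT box (CCAAT) and the E2F core (TTCCCGC), searched on both strands, so that the reverse complements also appear in capitals. In the printed stretches no match overlaps another.
Mki67 (chr7:135716380-135716529, minus strand): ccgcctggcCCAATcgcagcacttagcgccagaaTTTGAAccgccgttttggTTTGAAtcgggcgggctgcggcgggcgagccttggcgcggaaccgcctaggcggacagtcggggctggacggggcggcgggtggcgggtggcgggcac
Top2a (chr11:99024190-99024339, minus strand): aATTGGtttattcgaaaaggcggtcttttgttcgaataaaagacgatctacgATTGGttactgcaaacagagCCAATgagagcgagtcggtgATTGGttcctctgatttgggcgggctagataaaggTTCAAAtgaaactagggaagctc
Ccnb2 (chr9:70421555-70421704, minus strand): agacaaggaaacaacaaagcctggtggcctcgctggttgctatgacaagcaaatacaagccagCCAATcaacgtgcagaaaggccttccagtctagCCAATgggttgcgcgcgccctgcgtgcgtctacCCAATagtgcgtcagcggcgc
Cenpf (chr1:189688087-189688236, minus strand): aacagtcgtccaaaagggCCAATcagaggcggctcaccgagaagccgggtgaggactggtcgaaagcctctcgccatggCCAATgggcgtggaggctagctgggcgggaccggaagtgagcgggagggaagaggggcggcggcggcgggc
Birc5 (chr11:117849087-117849236, plus strand): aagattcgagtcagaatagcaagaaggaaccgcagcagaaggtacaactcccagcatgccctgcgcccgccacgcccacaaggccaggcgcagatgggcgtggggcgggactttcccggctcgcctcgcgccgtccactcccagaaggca
Rrm1 (chr7:102441545-102441694, plus strand): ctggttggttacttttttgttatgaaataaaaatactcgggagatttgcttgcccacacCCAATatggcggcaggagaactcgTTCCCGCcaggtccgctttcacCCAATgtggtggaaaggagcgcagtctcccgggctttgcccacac
Mcm5 (chr8:75109359-75109508, plus strand): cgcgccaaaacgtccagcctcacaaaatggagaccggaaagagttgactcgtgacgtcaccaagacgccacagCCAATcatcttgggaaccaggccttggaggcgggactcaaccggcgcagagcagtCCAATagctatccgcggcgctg

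In the 300 bases from 250 before to 50 after the start, the CHR core was found in 10 of 14 G2 or M genes, in 1 of 10 S genes (Mcm2) and in 0 of 4 G1 genes, against 18.1% of all promoters of that length. The CCAAT box was found in 12 of 14, 8 of 10 and 1 of 4, against 37.9% of all. Both together were found in the same 10 G2 or M genes, against 7.12% of all. The E2F core was found in 0 of 14 G2 or M genes, in 3 of 10 S genes (Mcm3, Mcm7 and Rrm1) and in 1 of 4 G1 genes (Cdk2), against 4.66% of all. In the printed 150 bases alone the CHR core was found in 5 of 14 G2 or M genes and the E2F core in 1 of 10 S genes. Among the printed stretches, Mki67 held 2 CHR cores, Top2a held 1 CHR core and 4 CCAAT boxes, and Rrm1 held 1 E2F core between 2 CCAAT boxes. The G2 or M genes Ccnb2 and Cenpf and the S gene Mcm5 held CCAAT boxes and neither of the other motifs, and in the Birc5 stretch none of the 3 motifs was found. Within the 150 bases before the start, the G2 or M genes held 14 pairs of neighbouring CCAAT boxes, and 7 of these lay 31 to 34 bases apart, in 6 genes (Cdk1, Ube2c, Ccnb1, Ccnb2, Cdca8 and Aurka). Both pairs of Ccnb2 lay 33 bases apart, while Cdca8 also held a pair 40 bases apart. The other pairs of G2 or M genes lay 20 to 61 bases apart and those of S genes 40 to 55, so the ranges overlapped. The range of 31 to 34 bases was chosen after the values were seen. Such a pair was held by 0.925% of all promoters and by 14.4% of those with at least 2 boxes. A match describes the letters, and nothing here measured a factor at these sites.

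The control library held 50880623 UMIs in its kept barcodes and the EMF_AuNPs library 19537022, with a median of 1910 and 2312.5 UMIs per barcode. Barcodes were assigned to 17 types by at least 3 detected markers of a type, none of which is among the 35 genes. Mature neurons, the main cells of a hippocampus, made up 331 barcodes (1.54%) and 72 (1.03%). Barcodes with markers of more than one type, called mixed, made up 4.65% and 3.30%, and barcodes of no type, called ungated, made up 5.42% and 11.3%. Haemoglobin genes held 1.04% of control UMIs and 4.19% of EMF_AuNPs UMIs. The libraries shared 38 barcode sequences, and 0 of these were among the 49 and 40.

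The 4-gene rule over all 35 genes mainly found deep barcodes that carried G1 genes. It held 1.86% of control barcodes (interval 1.69 to 2.05%) and 4.12% of EMF_AuNPs barcodes (3.66 to 4.61%), a difference of 2.25 percentage points (1.77 to 2.78). Just below the threshold, 769 and 382 barcodes had exactly 3 of the genes, and just above it 258 and 182 had exactly 4. The chosen barcodes were deep, with a median of 5481 and 5961.5 UMIs, and 299 of the 399 and 199 of the 288 had a UMI of none of the 18 G2 or M genes. Those with fewer than 4 S, G2 or M genes carried Ccnd3 in 65.4% and 66.5%, Ccnd2 in 64.6% and 63.3% and Cdk4, the kinase of the D cyclins, in 54.3% and 60.5%. Endothelial barcodes (144 and 98) and choroid plexus barcodes (57 and 49) were the largest typed groups among them, and choroid plexus barcodes were also the deepest type, with a median of 12132.5 and 13237 UMIs. After every barcode was thinned to 1000 UMIs, which left out 3579 and 1379 shallower ones, the rule held 36 of 17846 (0.202%) and 20 of 5617 (0.356%), and the difference was 0.154 points (0.00693 to 0.356).

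Counting only the 29 S, G2 or M genes, 49 control barcodes (0.229%, interval 0.169 to 0.302%) and 40 EMF_AuNPs barcodes (0.572%, 0.409 to 0.778%) had 4 or more. The difference of 0.343 points (0.175 to 0.556) fell to 0.125 points (0.0118 to 0.294) after thinning, with 19 and 13 barcodes. Here 122 and 84 barcodes lay just below the threshold with exactly 3 of the genes, and 17 and 17 just above it with exactly 4. The strictest count, of 4 or more of the 18 G2 or M genes, held 27 barcodes (0.126%) and 18 (0.257%), a difference of 0.131 points (0.0208 to 0.285). Barcodes with more S than G2 or M genes numbered 21 and 15, and those with more G2 or M genes numbered 24 and 19.

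The barcodes with 4 or more S, G2 or M genes fell into several lineages. Of the 49 and 40, microglia held 11 and 14, the lineage of new neurons (progenitors, neuroblasts) 7 and 2, endothelial cells 5 and 5, ependymal cells 5 and 1, oligodendrocytes 3 and 4, astrocytes 3 and 3, border macrophages 1 and 1, choroid plexus cells 0 and 3 and oligodendrocyte precursors 0 and 1. A further 9 and 6 were ungated, and 5 and 0 were mixed. Of the 49 and 40, 8 and 7 had no G2 or M gene at all. The 27 and 18 with 4 or more G2 or M genes were microglia (5 and 8), the new neuron lineage (5 and 1), astrocytes (3 and 1), endothelial cells (2 and 0), border macrophages (1 and 1), oligodendrocytes (0 and 2), an oligodendrocyte precursor (0 and 1), mixed (3 and 0) and ungated (8 and 4). None was ependymal or of the choroid plexus, and the 5 control ependymal barcodes were deep, with a median of 15027 UMIs. No such barcode was found among neurons, Cajal-Retzius cells, mural cells, fibroblasts, T or NK cells, B lineage cells, monocytes or neutrophils and the red blood cell lineage of either library. Of the barcodes with 4 or more G2 or M genes, both control endothelial ones also passed the gate of a second type. The second type was an oligodendrocyte precursor in 1, with 5 markers, and the new neuron lineage in the other, with 6 markers. The control astrocyte barcode with 10 G2 or M genes also had 6 markers of the new neuron lineage. Among all 49 and 40, markers of a second type were past the gate in 15 and 4. With every such barcode counted as mixed, microglia held 10 and 14, the new neuron lineage 7 and 1 and endothelial cells 2 and 4. Ependymal cells then held 3 and 1, oligodendrocytes 0 and 3, astrocytes 2 and 3 and choroid plexus cells 0 and 2.

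**Figure D1:**
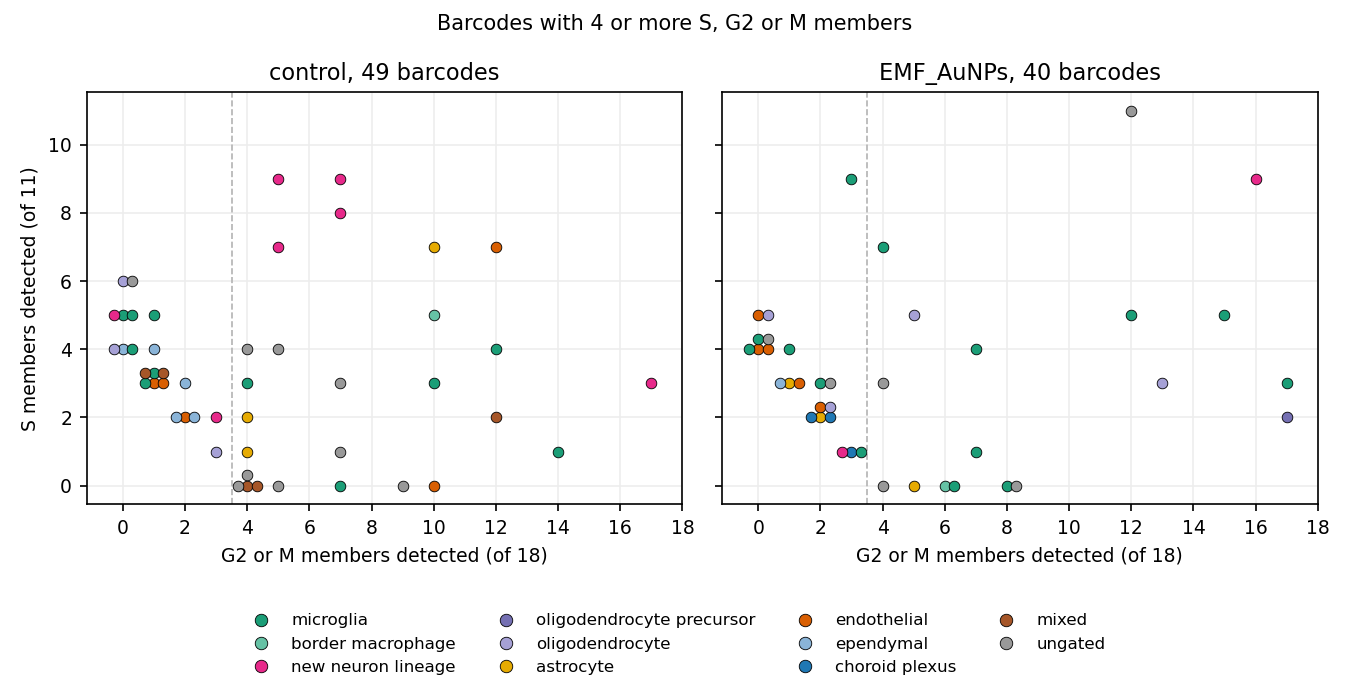
Each point is 1 barcode with 4 or more S, G2 or M genes, placed by the number of G2 or M genes (x axis, of 18) and S genes (y axis, of 11) with a UMI and coloured by marker-gated type, with points that coincide moved slightly apart and a dashed line at the 4-gene G2 or M threshold. To the right of the line lie 27 control and 18 EMF_AuNPs barcodes, and the 2 EMF_AuNPs barcodes with 17 G2 or M genes are a microglial one and an oligodendrocyte precursor.

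Single barcodes show how complete the mitotic programme was. The control barcode with the most G2 or M genes was of the new neuron lineage, with 17 of the 18 genes and 80 of its 4637 UMIs on them. It held 10 UMIs of Mki67, the proliferation antigen Ki-67, 10 of Top2a, the topoisomerase that untangles chromosomes, and 19 of Cenpf, a kinetochore protein. It also held 13 UMIs of Sox11 and 4 of Eomes, transcription factors of new neurons and their progenitors. In 5 further control barcodes of this lineage the S genes outnumbered the G2 or M genes, 4 of them with 7 to 9 S and 5 to 7 G2 or M genes and 1 with 5 S and 0 G2 or M genes. The control microglial barcode with the most G2 or M genes had 14 of them, beside 15 UMIs of Csf1r, the receptor on which microglia depend, and 9 of Cx3cr1.

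In the EMF_AuNPs library a microglial barcode had 17 of the 18 G2 or M genes with 66 UMIs, beside 24 UMIs of Csf1r and 19 of Cx3cr1. An oligodendrocyte precursor barcode also had 17 of the genes, and its 174 UMIs on them, of 8911 in all, were the most of any barcode in either library. That barcode alone held 52 UMIs of Cenpf, 16 of Ube2c, which loads ubiquitin for the anaphase-promoting complex, and 16 of Ccnb1, cyclin B1. It also held 16 UMIs of Olig1 and 12 of Pdgfra, which mark the precursor. An EMF_AuNPs barcode of the new neuron lineage had 16 G2 or M and 9 S genes and 35 UMIs of Sox11, but also 1906 UMIs of the haemoglobin gene Hbb-bs among its 10414, and red blood cell markers were its second type. An ungated barcode had 12 G2 or M genes and all 11 S genes, with 7 UMIs of Sox11 and 12 of the endothelial gene Cldn5.

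Single lineage genes were also counted, without the gate. Among the 27 and 18 barcodes with 4 or more G2 or M genes, Csf1r and Cx3cr1 occurred together in 11 and 11. Sox11 occurred in 12 and 4, Eomes in 7 and 0, Olig1 with Pdgfra in 1 and 1, and over 100 UMIs of Cd74, the invariant chain of antigen-presenting cells, in 3 and 0. Some barcodes held more than one of these combinations. The ciliary genes Foxj1 and Ccdc153 had 0 UMIs in all 45 of these barcodes.

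Barcodes with both Csf1r and Cx3cr1 more often had 4 or more G2 or M genes in the EMF_AuNPs library. Eomes barcodes, few in either library, went the other way. Csf1r and Cx3cr1 were both detected in 4767 control barcodes and 1332 EMF_AuNPs barcodes, at a median of 1804 and 2511.5 UMIs. Of these, 11 (0.231%, interval 0.115 to 0.413%) and 11 (0.826%, 0.413 to 1.47%) had 4 or more G2 or M genes, a difference of 0.595 points (0.188 to 1.25). Gated microglia made up 5 of the 11 and 8 of the 11, and the others were of other types, mixed or ungated. Eomes, a factor of intermediate progenitors, was detected in 17 and 6 barcodes. In the control 7 of the 17 (41.2%) had 4 or more G2 or M genes, and in the EMF_AuNPs library 0 of 6 had, which allows a share of up to 45.9%. That is -41.2 points, with an interval of -64.0 to 2.49 that included 0. With 4 or more S, G2 or M genes the counts were 9 of 17 (52.9%) and 0 of 6, which is -52.9 points (-73.8 to -8.15), and this interval did not include 0.

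By the gate itself, 11 of 3070 control microglia (0.358%, interval 0.179 to 0.640%) and 14 of 809 EMF_AuNPs microglia (1.73%, 0.949 to 2.89%) had 4 or more S, G2 or M genes, a difference of 1.37 points (0.620 to 2.54). Thinned to 1000 UMIs the counts were 4 of 2815 and 5 of 616, a difference of 0.670 points (0.154 to 1.75). In the new neuron lineage the shares were 7 of 22 (31.8%) and 2 of 6 (33.3%). Oligodendrocytes had 3 of 6705 and 4 of 1187, a difference of 0.292 points (0.0689 to 0.819), at a median of 2366 and 3411 UMIs. Thinned to 1000 UMIs they had 0 of 6266 and 1 of 1152, a difference of 0.0868 points whose interval included 0 (-0.00734 to 0.490). The 3 control barcodes also carried markers of a second type. Of the EMF_AuNPs oligodendrocytes, the one with 13 G2 or M genes also held 11 UMIs of Csf1r and 16 of Cx3cr1. The interval of the difference included 0 in astrocytes (0.114 points, -0.0879 to 0.495) and in endothelial cells (0.249 points, -0.0407 to 0.773).

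At least 1 G2 or M gene was detected in 3.12% and 5.20% of all barcodes. Neurons, which do not divide, had at least 1 in 12 of 331 barcodes (3.63%, at a median of 1263 UMIs) and in 2 of 72 (2.78%, 1204). Microglia had at least 1 in 1.60% and 4.08%, at a median of 1580.5 and 1879 UMIs, and the control interval overlapped that of neurons (1.18 to 2.10% and 1.89 to 6.25%). A single G2 or M gene therefore did not set microglia apart from neurons. At 4 or more G2 or M genes the counts were 5 control and 8 EMF_AuNPs microglia (0.163% and 0.989%) and 0 neurons. Neurons were too few for a contrast, since 0 of 331 and 0 of 72 allow shares of up to 1.11% and 4.99%. Ependymal barcodes had 30.3% and 16.4% and Cajal-Retzius barcodes 23.2% and 16.0%. In Cajal-Retzius cells, a neuron type of the hippocampal surface, Cenpf gave 22 UMIs in 20 of 95 control barcodes and 4 UMIs in 4 of 25 EMF_AuNPs barcodes, and no barcode of this type had 4 or more S, G2 or M genes. In ependymal cells, which carry motile cilia, Cenpf gave 25 and 2 UMIs and Tpx2, a spindle assembly factor, 21 and 5.

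The G2 or M genes were concentrated in few barcodes and the S and G1 genes were not. For each gene the share of its UMIs was taken that lay in barcodes with 4 or more of the other S, G2 or M genes, so that a gene does not count towards its own barcodes. The median over the 18 G2 or M genes was 41.0% for control and 58.2% for EMF_AuNPs barcodes. The median over the 11 S genes was 3.88% and 7.42%, and over the 6 G1 genes 2.33% and 2.70%. Pbk, a mitotic kinase, lay at 82.4% and 83.0%, Top2a at 80.0% and 79.5%, Birc5, which encodes survivin, at 67.2% and 66.7%, and Mki67 at 60.0% and 70.0%. Bub1, a spindle checkpoint kinase, had all of its 5 and 6 UMIs in such barcodes. Rrm2, the subunit of ribonucleotide reductase made in S phase, stood apart from the other S genes at 57.1% and 33.3%, while Pcna, the sliding clamp of DNA polymerase, lay at 1.01% and 3.94%. Cdc20, the activator of the anaphase-promoting complex, lay at 7.04% and 48.3%, the widest gap between the libraries among the 35. These shares describe how the genes clump and share their libraries and depth, so no test was attached.

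**Figure D2:**
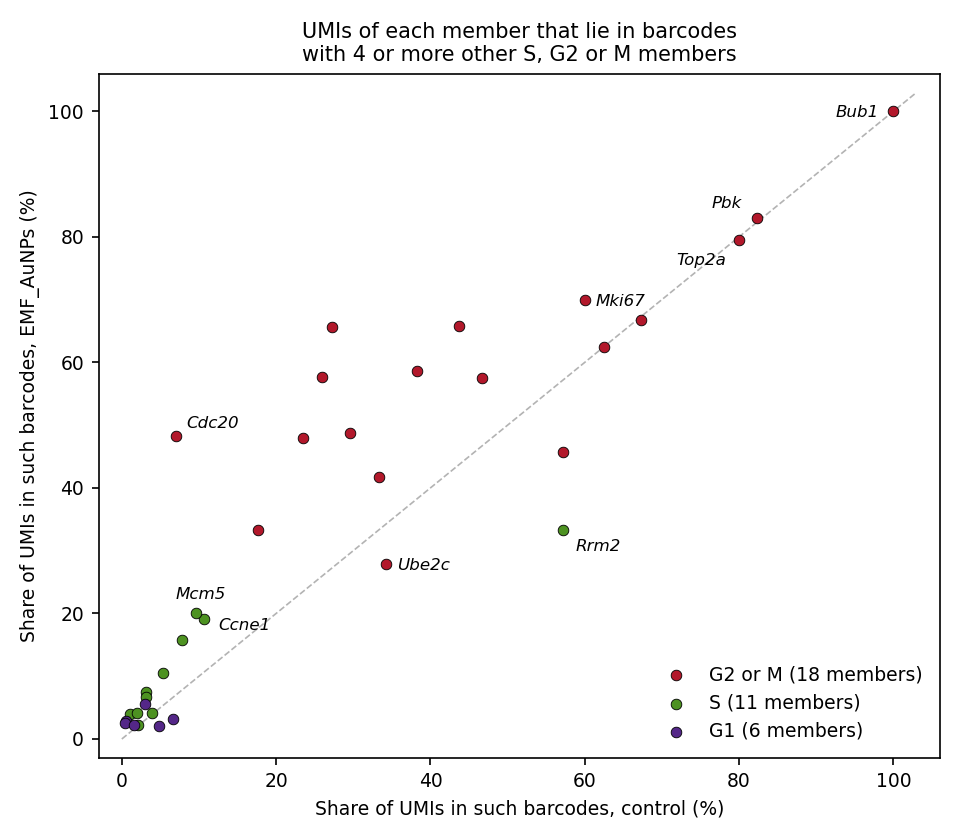
Each point is 1 of the 35 genes, placed by the percentage of its UMIs in barcodes that also hold 4 or more other S, G2 or M genes, in the control (x axis) and the EMF_AuNPs library (y axis), with a dashed line of equal shares. The 18 G2 or M genes spread from 7.04 to 100% in the control, while the G1 genes stay under 7% in both libraries.

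Other cell cycle genes, from lists of this pathway outside the 35, were detected far more often in the 49 and 40 barcodes than in the rest. Of 39 other G2 and M genes found, 39 and 38 were detected in a higher share there, at a median of 20.4% against 0.262% of the other control barcodes and 17.5% against 0.259% of the other EMF_AuNPs barcodes. The 4 with the most UMIs were Hmgb2 (224 and 139 UMIs), a chromatin protein, Tmpo (72 and 62), a protein of the nuclear lamina, Smc2 (28 and 37), a condensin subunit, and Prc1 (32 and 31), which bundles the central spindle. Of 32 other S genes, 32 and 31 were detected more often, led by Nasp, a histone chaperone, Dut, Lig1, the replicative DNA ligase, and Slbp, which binds histone mRNA. The 13 brakes on the cycle followed with 13 and 12, led by Btg2 (60 and 104 UMIs), Btg1 (65 and 81), Cdkn1a (46 and 40), which encodes p21, and Trp53 (17 and 17). Their contrast was smaller, at a median of 20.4% against 8.94% and 17.5% against 8.65%. The chosen barcodes were also deeper than the rest, with a median of 4247 and 4391.5 UMIs, and the part of depth in these shares was not tested. The share of all genes detected more often there was not counted, so the counts above have no background. Relative to all UMIs of the same barcodes, some brakes and a G2 and M gene were lower there than in the rest in both libraries.

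Outside every list, the 10 genes with the highest level in the 89 barcodes, relative to other barcodes of the same types, were Hist1h2ao, 2810417H13Rik, Spc24, Hist1h1b, Hist1h2ae, Cenpm, H2afx, Esco2, Lockd and Ezh2. Hist1h2ao, a replication-dependent histone gene, stood at 458 CPM (UMIs per 1e6 UMIs of the same barcodes) against 11.6 CPM and was detected in 35 of the 89. The gene listed as 2810417H13Rik, which encodes a Pcna-binding protein, stood at 264 against 4.76 CPM, in 37 of the 89. The other 8 include Spc24 of the kinetochore, Esco2, a cohesin acetyltransferase of S phase, and Ezh2, a histone methyltransferase. The barcodes were chosen by cell cycle genes, so these levels are a description.

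Across whole libraries, the G2 or M genes made up most of the members that were higher in the EMF_AuNPs library. A gene was called higher or lower at a CPM ratio of at least 1.5-fold with at least 20 UMIs over both libraries. Of 34 members with enough UMIs (Bub1 had 11), 16 were higher and 1 was lower, where 14.5% of all 15402 genes were higher and 10.9% were lower. By role, 13 of 17 G2 or M genes, 2 of 11 S genes and 1 of 6 G1 genes were higher, with a median log2 ratio of 1.09, 0.28 and 0.29, against 0.08 over all genes. Of the other G2 and M genes 16 of 35 were higher and 1 lower, of the other S genes 2 higher and 2 lower of 28, and of the brakes 2 higher of 13.

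Among the G2 or M genes, Mki67 had 95 UMIs in 54 control barcodes and 110 UMIs in 44 EMF_AuNPs barcodes, a log2 ratio of 1.59 (1.18 to 2.0). Top2a rose from 2.06 to 3.99 CPM and Cenpf from 4.26 to 6.86 CPM, with log2 ratios of 0.95 and 0.69. The cyclins of mitosis were low in the control and several-fold higher in the EMF_AuNPs library. Ccnb1 stood at 0.314 and 2.10 CPM (16 and 41 UMIs), a log2 ratio of 2.74 (1.87 to 3.67). Ccnb2, cyclin B2, stood at 0.413 and 1.79 CPM (21 and 35 UMIs) and Ccna2, cyclin A2, at 0.295 and 1.69 CPM (15 and 33 UMIs). Their partner kinase Cdk1 stood at 0.668 and 1.48 CPM. Birc5 stood at 1.14 and 2.92 CPM, its partner in the chromosomal passenger complex Cdca8 at 2.65 and 3.99 CPM, Pbk at 0.668 and 2.41 CPM, Cdc20 at 1.40 and 2.97 CPM and Plk1, a mitotic kinase, at 0.649 and 1.23 CPM. The 4 that passed neither threshold were Nusap1, a spindle protein (1.73 and 2.0 CPM), Tpx2 (2.67 and 2.56 CPM) and the mitotic kinases Aurka (0.668 and 0.614 CPM) and Aurkb (0.314 and 0.409 CPM).

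Some of these sums rested on few barcodes or on one type. Of the 41 EMF_AuNPs UMIs of Ccnb1, 16 lay in the oligodendrocyte precursor barcode described above, as did 52 of the 134 UMIs of Cenpf. Without the barcode richest in S, G2 or M UMIs in each library, 14 members were higher, and Cenpf and Cdca8 were no longer among them. Without the 49 and 40 barcodes with 4 or more S, G2 or M genes, 10 of the 31 members with enough UMIs were higher. Cdc20, Cdca8, Cenpf and Pcna were then under 1.5-fold. Ccna2 and Pbk no longer had 20 UMIs over both libraries, so they were not called either way. Ube2c rose from 1.38 to 7.17 CPM, a log2 ratio of 2.38 (1.96 to 2.82), but 57 of its 140 EMF_AuNPs UMIs and 14 of its 70 control UMIs lay in the red blood cell lineage. That type had 126 and 296 barcodes, and within it Ube2c stood at 40.1 and 82.7 CPM, a log2 ratio of 1.05. After thinning, Mki67 was detected in 0.146% and 0.214% of barcodes, a difference of 0.0679 points whose interval included 0 (-0.0458 to 0.234). Top2a was detected in 0.101% and 0.285%, a difference of 0.184 points (0.0599 to 0.365), and Ube2c in 0.0897% and 0.552%, a difference of 0.462 points (0.290 to 0.695).

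**Figure D3:**
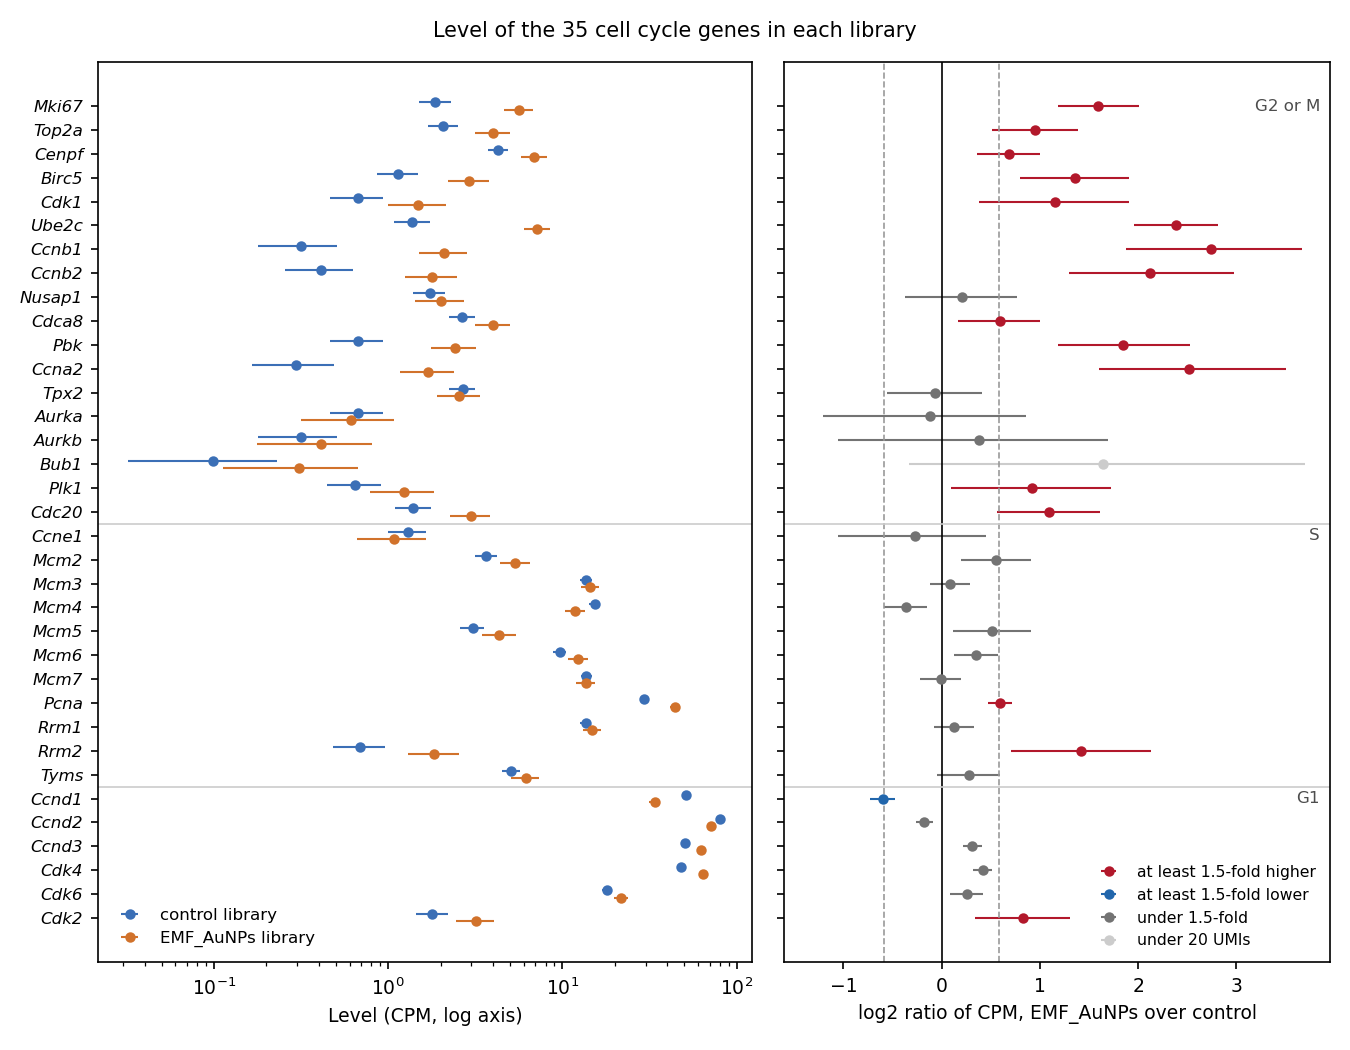
The left panel gives the level of each of the 35 genes in each library (CPM, log axis) and the right panel the log2 ratio of EMF_AuNPs over control, with bars for exact 95% counting intervals, horizontal lines between the roles and dashed lines at 1.5-fold. The G2 or M genes Ccnb1, Ccna2 and Ube2c lie farthest to the right, with log2 ratios of 2.74, 2.52 and 2.38, and Ccnd1 is the 1 gene past 1.5-fold to the left, at -0.60.

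Among the S genes, Pcna had 1491 and 864 UMIs, 29.3 and 44.2 CPM, a log2 ratio of 0.59 (0.47 to 0.72). With ratios centred on the median of all genes, Pcna and Cdca8 were no longer past 1.5-fold. Rrm2 had 35 and 36 UMIs, 0.688 and 1.84 CPM, a log2 ratio of 1.42. The 6 genes of the replicative helicase stayed under 1.5-fold, with log2 ratios of 0.56 for Mcm2, 0.08 for Mcm3, -0.37 for Mcm4, 0.51 for Mcm5, 0.35 for Mcm6 and -0.01 for Mcm7, although Mcm2 passed 1.5-fold with haemoglobin UMIs left out of the totals. Rrm1, the other subunit of ribonucleotide reductase (13.6 and 14.8 CPM), Tyms, which makes thymidylate (5.07 and 6.14 CPM), and Ccne1, cyclin E1 (1.30 and 1.07 CPM), were also under 1.5-fold. Among the G1 genes, Ccnd1, cyclin D1, had 2607 and 661 UMIs and fell from 51.2 to 33.8 CPM, a log2 ratio of -0.60 (-0.72 to -0.48), which passed 1.5-fold narrowly and no longer did when haemoglobin UMIs were left out of the totals. Ccnd2 stood at 80.4 and 71.1 CPM, Ccnd3 at 50.5 and 62.8 CPM, Cdk4 at 48.0 and 64.1 CPM and Cdk6 at 18.1 and 21.7 CPM, all under 1.5-fold. Cdk2, the partner of cyclins E and A, stood at 1.79 and 3.17 CPM, a log2 ratio of 0.83.

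In microglia the mitotic genes with enough UMIs were higher in the EMF_AuNPs library and Ccnd1 was lower. Of 21 members with enough UMIs, 11 were higher and 1 lower, where 11.7% of 11564 genes were higher and 16.1% lower, and the median log2 ratio was 0.59 for the members and -0.03 for all genes. Of the 18 G2 or M members, 7 had enough UMIs and these 7 were higher, as were 4 of 9 S members and 0 of 5 G1 members. A gene can reach 20 UMIs through the library where it is high, so these counts only describe the genes that passed. Mki67 had 18 UMIs in 7 control microglia and 40 UMIs in 10 EMF_AuNPs microglia, 3.38 and 24.6 CPM, a log2 ratio of 2.86 (2.03 to 3.75). A single barcode held 9 of the 18 UMIs and another 20 of the 40, and the interval does not allow for such clumping. Top2a had 27 UMIs in 4 barcodes and 24 UMIs in 11, 5.07 and 14.8 CPM, a log2 ratio of 1.54. Pbk stood at 1.13 and 9.85 CPM, Cenpf at 2.44 and 15.4 CPM, Cdca8 at 2.25 and 11.7 CPM, Ube2c at 1.88 and 8.62 CPM and Birc5 at 2.44 and 9.85 CPM. With under 20 UMIs, Ccnb1 had 2 and 11, Cdc20 3 and 14 and Ccna2 2 and 8, while Aurkb had 9 and 1.

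The summed level of the 18 G2 or M genes in microglia came to 29.9 CPM (159 UMIs) for the control and 137.9 CPM (224 UMIs) for EMF_AuNPs. Barcodes with 4 or more G2 or M genes held 69.8% and 82.6% of these UMIs, although they numbered 5 of 3070 and 8 of 809. Without the single richest barcode of each library the sums were 22.2 and 97.6 CPM, and without all such barcodes 9.05 and 24.6 CPM. Among S genes in microglia, Mcm2 (3.38 and 8.62 CPM), Mcm6 (7.51 and 11.7 CPM), Mcm7 (11.1 and 19.1 CPM) and Pcna (33.1 and 49.9 CPM) were higher, and Mcm3 stood at 41.1 and 44.3 CPM. Without barcodes of 4 or more S, G2 or M genes the log2 ratios of Mcm2, Mcm6, Mcm7 and Pcna were 0.28, 0.29, 0.25 and 0.32, and none of the 4 was past 1.5-fold. Outside the 35, 11 of 18 other G2 and M genes were higher and 2 lower, 6 of 19 other S genes were higher, and 2 of 11 brakes were higher. Ccnd1 went the other way, with 952 and 164 UMIs, 178.8 and 101.0 CPM, a log2 ratio of -0.82 (-1.07 to -0.58). Thinned to 1000 UMIs, Ccnd1 was detected in 16.1% of control and 8.77% of EMF_AuNPs microglia, a difference of -7.29 points (-9.72 to -4.47), and Top2a in 0.107% and 0.974%, a difference of 0.867 points (0.302 to 2.0). The thinned intervals of Birc5, Ube2c and Pbk also left out 0, from 4 EMF_AuNPs barcodes each. Those of Mki67 (0.380 points, -0.00135 to 1.32), Cenpf and Cdca8 included 0. Cdk1, Nusap1, Tpx2 and Aurka, under 20 UMIs in microglia, had lower thinned shares with intervals that included 0.

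**Figure D4:**
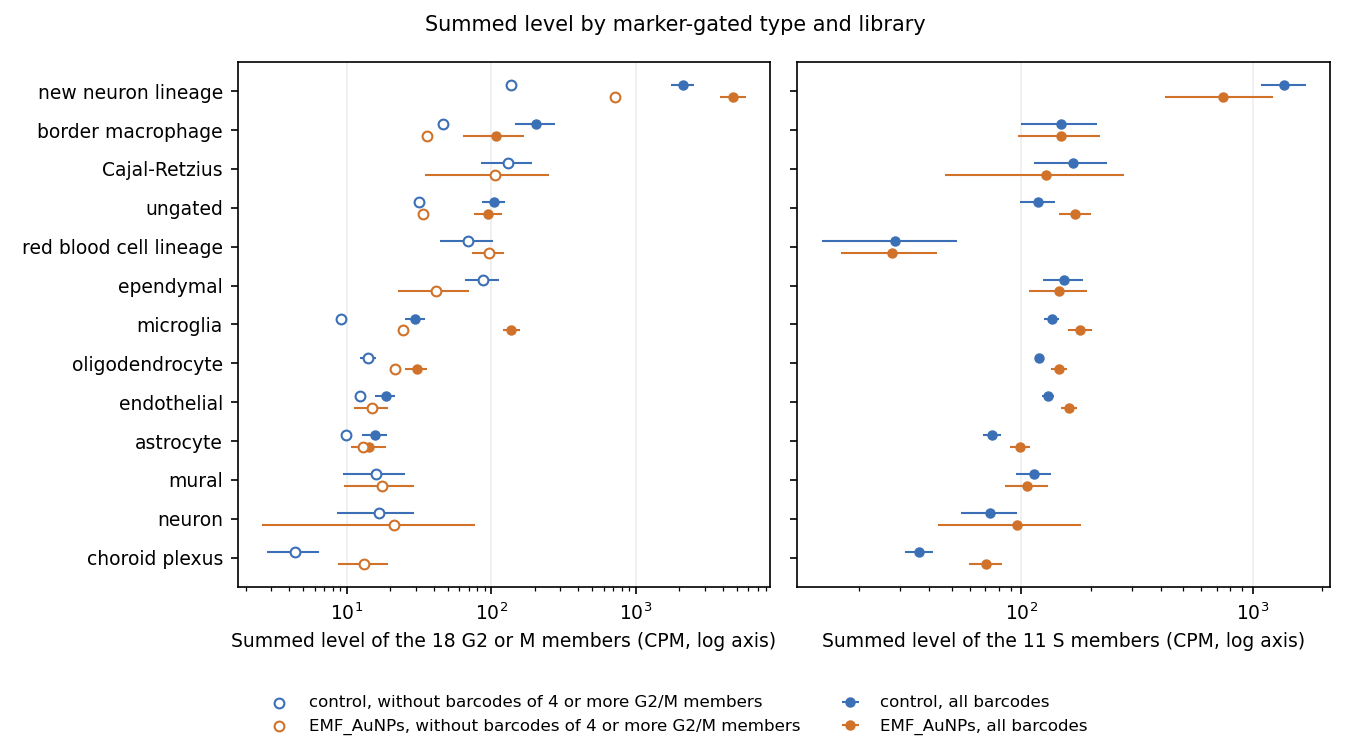
Summed level (CPM, log axis) of the 18 G2 or M genes (left) and the 11 S genes (right) by marker-gated type and library, with bars for exact 95% counting intervals and open circles for the left panel's sums without barcodes of 4 or more G2 or M genes. In microglia the G2 or M sum is 29.9 CPM in the control and 137.9 CPM in the EMF_AuNPs library, and 9.05 and 24.6 CPM for the open circles.

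In oligodendrocytes 5 of 20 members were higher and 0 lower, where 10.3% of 12841 genes were higher and 12.9% lower. Mki67 had 20 UMIs in 20 control barcodes and 21 UMIs in 14 EMF_AuNPs barcodes, 1.16 and 4.99 CPM, a log2 ratio of 2.10 (1.14 to 3.06). That ratio was 1.30 without barcodes of 4 or more S, G2 or M genes, 1.44 with any second type counted as mixed and 1.23 at a marker share of 3 times the mean. Pcna rose from 38.8 to 60.3 CPM, a log2 ratio of 0.64 (0.42 to 0.85), Ube2c stood at 0.640 and 2.14 CPM, and the ratios of Cdca8 and Mcm2 had intervals that included 0. Thinned to 1000 UMIs, 2 or more S, G2 or M genes were detected in 35 of 6266 and 19 of 1152 oligodendrocytes, a difference of 1.09 points (0.461 to 2.02).

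In astrocytes 4 of 15 members were higher and 1 lower, where 18.0% of 12337 genes were higher and 12.7% lower, so the higher share was close to the background. The 4 were Pcna (21.7 and 40.6 CPM), Cdk4 (37.4 and 57.8 CPM), Tyms and Cdk2, and 0 of the 2 G2 or M genes with enough UMIs was among them. In endothelial cells 3 of 20 were higher (Ube2c, Mcm2 and Mcm5) and 3 lower (Cenpf, Nusap1 and Cdca8), where 11.3% of 12532 genes were higher and 10.9% lower, and the intervals of all 6 included 0. In choroid plexus cells 5 of 11 were higher and 1 lower, where 32.8% of 10347 genes were higher and 6.65% lower. The 5 were S genes, led by Pcna with 61 and 66 UMIs, 10.6 and 32.2 CPM, a log2 ratio of 1.60 (1.07 to 2.13), followed by Tyms, Mcm2, Mcm4 and Mcm6. Choroid plexus is a secretory epithelium, and the median log2 ratio of all its genes was 0.33, so the ratios of its members start from that shift.

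The D cyclins, which differ in the lineages that use them, covered a wider range between types than between libraries. Ccnd1 was highest in oligodendrocyte precursors (471 and 727 CPM, from 29 and 20 UMIs), followed by border macrophages (193 and 107 CPM), microglia (179 and 101 CPM) and endothelial cells (94.0 and 70.2 CPM). Of the 20 EMF_AuNPs UMIs of Ccnd1 in precursors, 12 lay in the 1 precursor barcode described above. The counting intervals of border macrophages and microglia overlapped. In choroid plexus cells it stood at 3.84 and 1.95 CPM. Ccnd2 was highest in the new neuron lineage (1580 and 2729 CPM, from 94 and 55 UMIs), where Ccnd1 had 1 and 0 UMIs. T or NK cells (494 and 404 CPM) and mural cells (377 and 259 CPM) followed. Ccnd3 was high in fibroblasts (151 and 215 CPM, from 39 and 31 UMIs), endothelial cells (107 and 113 CPM) and choroid plexus cells (91.2 and 121 CPM), and stood at 23.1 and 21.5 CPM in microglia. For Ccnd1 and Ccnd2 the order of the types named was the same in both libraries, and for Ccnd3 endothelial and choroid plexus cells changed places.

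Within types, Ccnd1 was below its control level in 8 of 9 types with enough UMIs, 5 of them past 1.5-fold, and Ccnd2 in 11 of 13, 2 of them past 1.5-fold. Cdk4 was above its control level in 10 of 11, 4 of them past 1.5-fold, and Ccnd3 in 7 of 8, 0 of them past 1.5-fold. All types come from the same 2 libraries, so they are not replicates of one another. How many of all genes keep a direction across types was not counted. Ccnd1 in astrocytes fell from 17.6 to 6.98 CPM, a log2 ratio of -1.33 (-2.0 to -0.71), and its ratio in endothelial cells was -0.42 (-0.62 to -0.22). Ccnd2 had a log2 ratio of -0.53 (-0.75 to -0.31) in choroid plexus cells, -0.40 (-0.60 to -0.19) in astrocytes and -0.28 (-0.47 to -0.09) in endothelial cells. In the new neuron lineage Ccnd2 went the other way, at 0.79 (0.28 to 1.28), and 38 of its 55 EMF_AuNPs UMIs lay in the 1 barcode rich in haemoglobin. Cdk4 had a log2 ratio of 0.63 (0.36 to 0.90) in astrocytes, 0.49 (0.30 to 0.68) in oligodendrocytes and 0.47 (0.25 to 0.68) in endothelial cells.

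**Figure D5:**
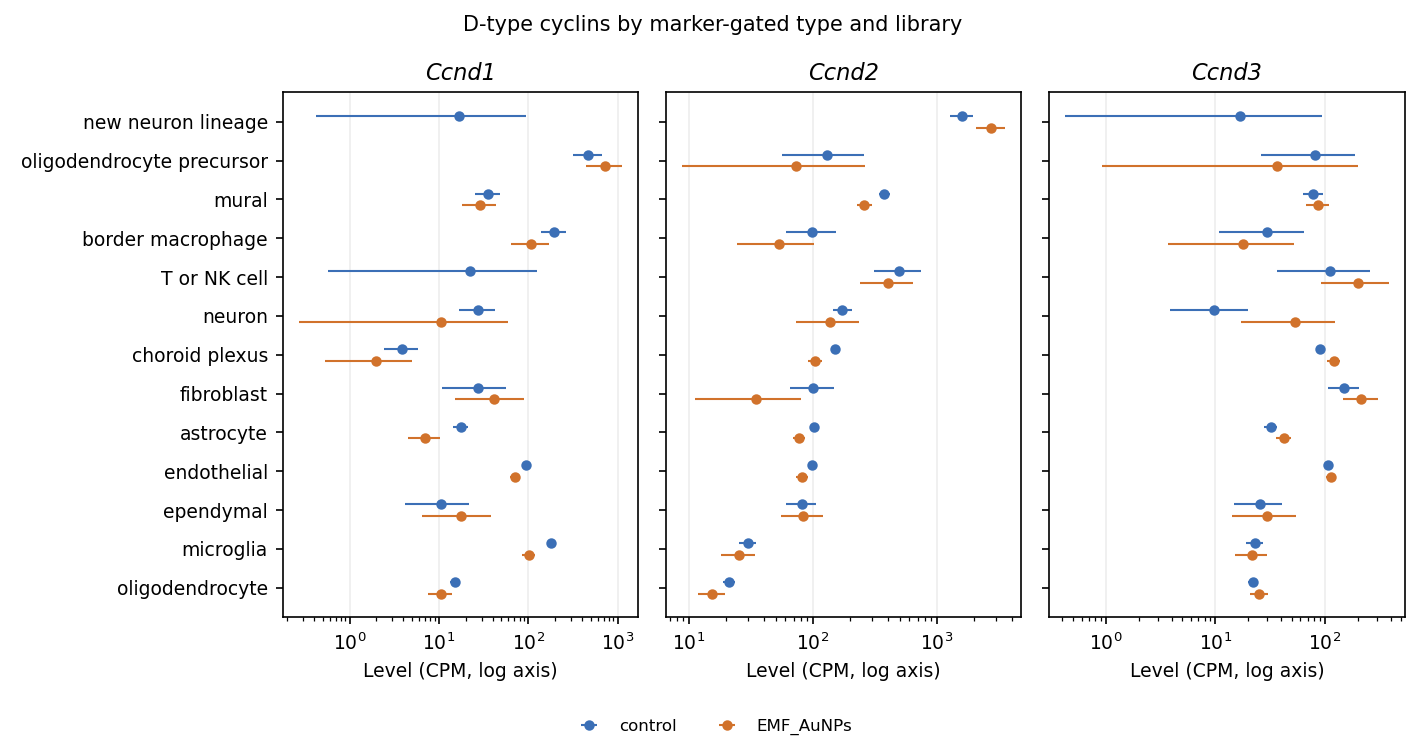
Level of the D-type cyclin genes (CPM, log axis) by marker-gated type, with blue points for the control and orange points for the EMF_AuNPs library and bars for exact 95% counting intervals; no point is drawn where a gene had 0 UMIs. Ccnd2 reaches 1580 and 2729 CPM in the new neuron lineage, and Ccnd1 reaches 471 and 727 CPM in oligodendrocyte precursors. Single barcodes held 38 of the EMF_AuNPs UMIs of Ccnd2 and 12 of those of Ccnd1 in these types.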

How the data were processed

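Single-cell RNA libraries of the hippocampus, 1 control and 1 EMF_AuNPs, were grouped by the treatment label. The deposited matrices hold UMI counts per gene and barcode, not normalised, which the authors made, per the submitters' processing notes, by Cell Ranger 3.0.2 with STAR and the mm10 build. The gene annotation is not given in the sources used here. Barcodes with under 500 UMIs or 250 genes were left out (158 and 7).

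The 35 members, the marker and gene lists and the tests were chosen with earlier results of these data known. A barcode was given a type where at least 3 markers of it were detected with a summed share of at least 1.5 times the library mean. The leading type needed 2 more detected markers than the next passing type, otherwise the barcode was mixed. Of the markers, 6 (Trac, Trbc2, Ighm, Igkc, Hba-a1 and Hbb-bt) were missing from the matrices, as was Knl1 of the other G2 and M genes. No doublet caller was run. UMIs were summed per library and type and divided by the total to give CPM. Intervals are Clopper-Pearson for shares, Newcombe for their differences, exact Poisson for CPM and exact conditional binomial for ratios, all at 95% and for counting error only. Thinning drew 1000 UMIs per barcode without replacement (seed 1). Since each group is 1 library, no p-value or standard error was computed, and the scripts were tested on simulated data.

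All members with at least 20 UMIs in a library pair or type could be named, with the 4 members of each other cell cycle list that had the most UMIs in the chosen barcodes and the 10 genes of no list with the highest CPM ratio there (10 CPM added, at least 20 UMIs, detected in at least 20% of them). Promoters were read from a RefSeq table on GRCm38.p6, without chromosome 18, and those printed overlap no exon of GENCODE M21. Alternatives were the number of genes required, depth, thinning, the gate, doublet-like barcodes, scaling and thresholds. Python 3.11.15, numpy 2.4.6, scipy 1.17.1 and pandas 2.3.3 were used.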

Additional observations from a re-analysis of the deposited data

How the results depend on the processing

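No paired analysis was possible because there was 1 library per group, and for the same reason no library could be left out. The difference in the share of barcodes with 4 or more of the 35 genes, 2.25 points, was positive under every alternative run: 4.13 points with 3 or more genes required, 0.857 with 5 or more, 2.87 in barcodes of at least 1000 UMIs, 0.154 after thinning and 0.818 after thinning with 2 or more required. That for the 29 S, G2 or M genes, 0.343 points, was 0.974 with 3 or more required, 0.125 after thinning and 0.131 for the 18 G2 or M genes. The 16 higher members became 10 at 2-fold and 10, of 31 with enough UMIs, without the 49 and 40 barcodes. The 1 lower member became 0 at 2-fold, 0 without haemoglobin UMIs and 2 (Ccnd1 and Tpx2) without those barcodes. With 3 or more genes required, microglia held 21 control and 24 EMF_AuNPs barcodes instead of 11 and 14. Of 134 alternatives to the 34 ratios by type past 1.5-fold, 131 kept the direction. The exceptions were Cdca8 in endothelial cells (0.28 when any second type made a barcode mixed) and Cdca8 and Mcm2 in oligodendrocytes (-0.24 and -0.011 at a marker share of 3 times the mean), and the cause was not tested. Ratios of genes with few UMIs, such as Ccnb1, Aurkb and Bub1, are limited by depth.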
